A study of Mus musculus with 4 samples.

Results

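The genes described here are those of CD11c and of conventional dendritic cells (DC) of type 2: Itgax, Itgam, Esam, Notch2, Dtx1, Klf4, Cd4, Clec4a4, Adgre4 and Adamdec1. Every probe set annotated with exactly 1 gene symbol, one of these 10, was taken. This gave 13 of 45037 probe sets, for 9 of the 10 genes. No probe set carried the symbol Clec4a4 in the annotation used, so that gene was not analysed here. The arrays hold RNA of CD11c-selected splenic DC, with 1 array for each of 4 groups: MARCO-/- DC with LPS, WT DC with LPS, MARCO-/- DC with PBS and WT DC with PBS. LPS, the bacterial ligand of TLR4, was given overnight at 100 ng/ml, and PBS was the vehicle. The mice were 8 to 12 weeks old, MARCO-/- mice lack the scavenger receptor MARCO in all cells, and both genotypes are labelled C56BL/6 (C57BL/6 in the methods, with WT mice bought from a vendor). Each preparation pooled 5 to 6 animals.

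Conventional DC of the spleen fall into a cross-presenting type 1 and a type 2 that presents antigen mainly to CD4 T cells. In mice, many type 2 cells carry CD11b, CD4, ESAM and the lectin DCIR2 on their surface. This ESAM-bearing population depends on signals through the receptor Notch2, which also supports marginal zone B cells. CD11c and CD11b are the alpha chains αX and αM that pair with the β2 chain to form complement receptors. None of these genes is confined to type 2 DC, since macrophages, monocytes, NK cells, B cells, T cells or endothelium express some of them.

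With 1 array per group there are no replicates, so no difference below could be tested, and genes are described by intensities, by log2 ratios between 2 arrays and by the 2-fold threshold of the methods. Intensities are RMA values on a linear scale, with a median of 4.87 over all probe sets and arrays. Values near 4.87 are treated as background. All 12 measured genes of a list shared by conventional DC (among them H2-Aa, Cd74, Flt3 and Zbtb46) were above that median on each of the 4 arrays. All 11 measured B cell markers and all 8 measured genes of plasmacytoid DC were as well. Being above the median therefore does not set conventional DC apart from other cells. In whole preparations, fewer cells of a type and less RNA per cell cannot be told apart.

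Intensity with LPS was at least 2-fold below that with PBS for 8 of the 13 probe sets in MARCO-/- DC and for 8 in WT DC, while none passed 2-fold upwards. Over the whole array of 45037 probe sets, 4.98% passed 2-fold downwards and 5.14% upwards in MARCO-/-, and 7.97% downwards and 4.59% upwards in WT. The 8 probe sets were the same in both genotypes and belong to 6 genes: Itgax, Itgam, Adgre4, Adamdec1, Klf4 and Dtx1. Esam, Cd4 and Notch2 missed 2-fold. The median log2 ratio of the 13 probe sets was -2.97 in MARCO-/- and -3.11 in WT, where that of all probe sets was 0.00 and 0.03. Among probe sets whose highest log2 value was at least 8, 5 of 5 from these genes were at least 2-fold lower in each genotype. Of all 2753 such probe sets, 12.5% were lower in MARCO-/- and 15.4% in WT. All 5 reached that brightness only with PBS, and their LPS values all lay below it. The filter thus favoured low ratios for these 5, so this comparison gives no independent support.

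**Figure D1:**
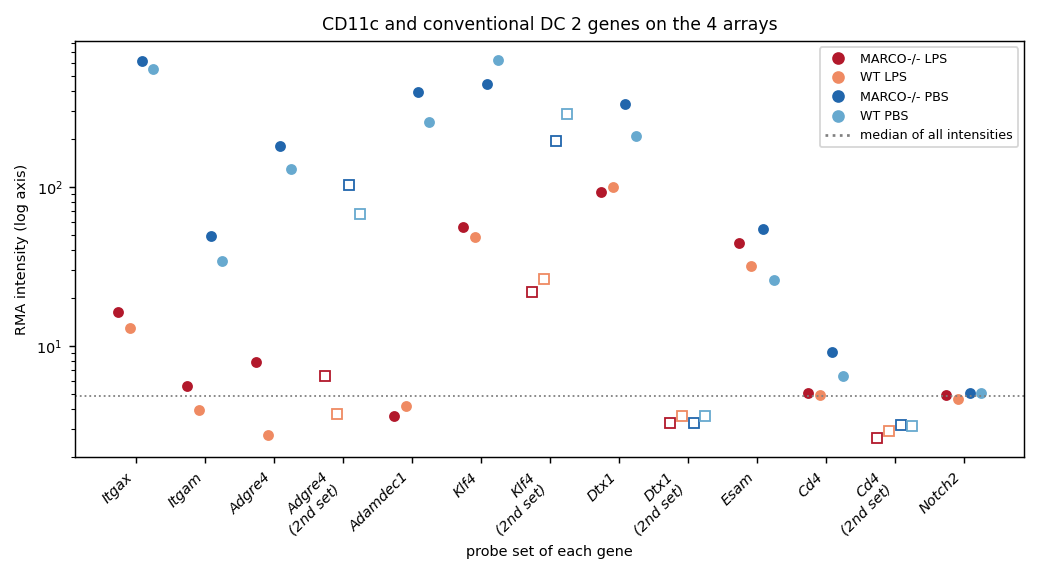
RMA intensity (log axis) of the 13 probe sets on the 4 arrays. Each point is 1 array, filled circles are the brightest probe set of a gene, open squares its other probe set, and the dotted line is the median of all intensities, 4.87. The LPS points of Itgax, Itgam, Adgre4, Adamdec1 and Klf4 lie far below their PBS points, from 16.4 against 621 for Itgax in MARCO-/- DC, while those of Esam stay among its PBS points.

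Itgax, which encodes CD11c, the molecule by which the cells had been selected, had an intensity of 16.4 in MARCO-/- DC with LPS, 12.9 in WT DC with LPS, 621 in MARCO-/- DC with PBS and 548 in WT DC with PBS. Both LPS arrays were thus low and both PBS arrays high, with the genotypes close to each other. LPS was accompanied by 37.9-fold lower Itgax in MARCO-/- and 42.6-fold lower Itgax in WT. Ranked from the lowest ratio among all 45037 probe sets, Itgax stood at 26 in MARCO-/- and at 18 in WT. Its values with LPS remained above the median of all intensities.

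Itgam, which encodes CD11b, had 5.59 in MARCO-/- DC with LPS, 3.98 in WT DC with LPS, 49.0 in MARCO-/- DC with PBS and 34.4 in WT DC with PBS. It was 8.77-fold lower with LPS in MARCO-/- and 8.64-fold lower in WT. Both LPS values lay at the background, so these folds are set by it. Itgb2, which encodes the β2 chain that CD11c and CD11b share, was lower as well: it had 149 and 80.3 in MARCO-/- and WT DC with LPS, and 761 and 622 with PBS.

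Adgre4, an adhesion G protein-coupled receptor related to F4/80, had 7.92 in MARCO-/- DC with LPS, 2.74 in WT DC with LPS, 179 in MARCO-/- DC with PBS and 129 in WT DC with PBS. Its other probe set had 6.42, 3.72, 102 and 67.5 on the same arrays. Both probe sets were low on both LPS arrays and high on both PBS arrays. The brighter was 22.6-fold lower with LPS in MARCO-/- and 47.1-fold lower in WT, and the other 16.0-fold and 18.1-fold. With values under the median of all intensities raised to it, the brighter probe set was 26.5-fold lower in WT.

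Adamdec1, a secreted metalloprotease of the ADAM family known in human DC and macrophages, had 3.64 in MARCO-/- DC with LPS, 4.21 in WT DC with LPS, 395 in MARCO-/- DC with PBS and 256 in WT DC with PBS. Both LPS values were under the median of all intensities. The folds were 109 and 60.8, and 81.1 and 52.5 with the LPS values raised to the median of all intensities. Of 8 ADAM proteases of leukocytes, none was at least 2-fold lower with LPS in either genotype by its brightest probe set, although 1 of 3 Adam10 probe sets was in WT, and Adam8 was 2.64-fold higher in MARCO-/-.

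Klf4, a zinc finger transcription factor that some type 2 DC of mice require, had 56.1 in MARCO-/- DC with LPS, 48.7 in WT DC with LPS, 439.5 in MARCO-/- DC with PBS and 629 in WT DC with PBS. This is 7.83-fold lower with LPS in MARCO-/- and 12.9-fold lower in WT. The other Klf4 probe set had 21.7, 26.4, 195 and 288, and was 8.99-fold and 10.9-fold lower. Klf4 kept intensities clearly above the background with LPS, unlike Itgam or Adamdec1.

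Dtx1, which encodes the ubiquitin ligase deltex 1 and is a known target gene of Notch, had 92.9 in MARCO-/- DC with LPS, 100.2 in WT DC with LPS, 333 in MARCO-/- DC with PBS and 208 in WT DC with PBS. It was 3.58-fold lower with LPS in MARCO-/- and 2.08-fold lower in WT, and the log2 ratio in WT was -0.99 after quantile normalization, under 2-fold. The other Dtx1 probe set lay between 3.29 and 3.61 on the 4 arrays, below the median of all intensities, and showed no such difference.

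Promoter sequence was examined for the 6 genes that were lower with LPS in both genotypes, of which 5 (Itgax, Itgam, Klf4, Dtx1 and Adgre4) had an entry in the RefSeq promoter table, build GRCm38.p6. Each window runs from 250 bases before to 50 after the annotated start. Both strands were searched for 4 motifs, GTGGGAA of RBPJ, GAGGAAG of the myeloid factor PU.1, GGGTGTG of KLF factors and the NF-κB motif. The PU.1 letters were in 3 of the 5 windows (Itgam, Dtx1 and Adgre4) and in 13.6% of all 32851 windows. The motifs of RBPJ, KLF factors and NF-κB were in none of the 5, and in 6.38%, 7.95% and 8.46% of all windows. A match is a run of letters and not a site of binding. The windows of Itgax, the gene that names these cells, and of the genes with a match are shown, with the matched letters in capitals (CTTCCTC is GAGGAAG on the other strand).
Itgax (chr7:128129300-128129599, + strand): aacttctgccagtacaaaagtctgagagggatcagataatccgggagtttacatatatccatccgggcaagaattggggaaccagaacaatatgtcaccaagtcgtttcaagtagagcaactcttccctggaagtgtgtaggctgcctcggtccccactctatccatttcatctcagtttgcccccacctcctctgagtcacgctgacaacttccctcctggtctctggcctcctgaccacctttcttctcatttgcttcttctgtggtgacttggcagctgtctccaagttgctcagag
Itgam (chr7:128062390-128062689, + strand): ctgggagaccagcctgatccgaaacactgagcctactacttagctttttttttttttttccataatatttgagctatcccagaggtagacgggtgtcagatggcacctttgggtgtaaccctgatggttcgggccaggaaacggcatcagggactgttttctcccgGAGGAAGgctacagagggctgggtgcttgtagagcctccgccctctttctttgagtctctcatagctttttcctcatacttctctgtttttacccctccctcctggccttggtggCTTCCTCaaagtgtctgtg
Adgre4 (chr17:55749734-55750033, + strand): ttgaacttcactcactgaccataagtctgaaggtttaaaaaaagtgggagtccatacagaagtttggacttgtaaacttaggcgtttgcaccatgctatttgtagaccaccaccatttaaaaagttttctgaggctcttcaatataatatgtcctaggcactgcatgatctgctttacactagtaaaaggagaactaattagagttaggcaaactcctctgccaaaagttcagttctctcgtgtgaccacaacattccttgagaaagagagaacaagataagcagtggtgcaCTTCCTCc
Dtx1 (chr5:120711620-120711919, - strand): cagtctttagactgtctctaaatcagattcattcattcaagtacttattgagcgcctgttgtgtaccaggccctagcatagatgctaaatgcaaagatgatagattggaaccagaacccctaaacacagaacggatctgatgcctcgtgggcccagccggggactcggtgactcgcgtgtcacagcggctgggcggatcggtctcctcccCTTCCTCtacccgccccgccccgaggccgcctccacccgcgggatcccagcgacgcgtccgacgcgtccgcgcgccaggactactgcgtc

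Esam encodes an adhesion molecule of this DC subset and of endothelium. It had 44.2 in MARCO-/- DC with LPS, 31.9 in WT DC with LPS, 54.3 in MARCO-/- DC with PBS and 25.8 in WT DC with PBS. The log2 ratio of LPS over PBS was -0.30 in MARCO-/- and 0.31 in WT. Esam thus stood apart from the other genes above the background, as neither genotype passed 2-fold with LPS.

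Cd4, the coreceptor of helper T cells that mouse type 2 DC also carry, had 5.07 in MARCO-/- DC with LPS, 4.93 in WT DC with LPS, 9.16 in MARCO-/- DC with PBS and 6.46 in WT DC with PBS. Its other probe set lay between 2.62 and 3.18. Notch2, the receptor itself, had 4.91, 4.60, 5.08 and 5.08 on the same arrays. Both genes lay at or near the background on all 4 arrays, which limits what their ratios can show.

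**Figure D2:**
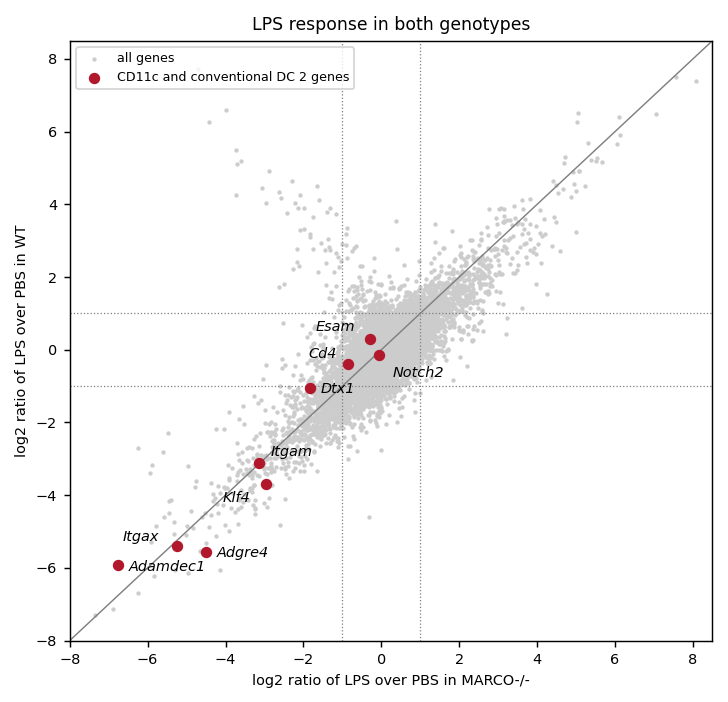
log2 ratio of LPS over PBS in MARCO-/- (horizontal axis) and in WT (vertical axis). Grey points are genes, shown by the brightest of their probe sets, the red points are the 9 genes described, the dotted lines mark 2-fold and the solid line marks equal ratios. Adamdec1 (-6.76 and -5.93), Itgax (-5.24 and -5.41) and Adgre4 (-4.50 and -5.56) lie at the low end of all genes in both genotypes.

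The ratios of LPS over PBS were then set against each other between genotypes, as the difference of log2 ratios, MARCO-/- minus WT. It was 0.17 for Itgax and -0.02 for Itgam. After quantile normalization it was -0.06 for Itgax, so it has no stable sign. The difference was 1.06 for the brighter probe set of Adgre4, 0.18 for the other, and 0.23 for the brighter with values raised to the median of all intensities. These differences could not be tested with 1 array per group.

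Between genotypes with PBS, Esam alone was at least 2-fold apart: it was 2.10-fold higher in MARCO-/- DC, and no probe set was lower. In that comparison 0.513% of the whole array passed 2-fold upwards and 0.442% downwards. The log2 ratio of Esam was between 1.05 and 1.16 under each of 3 other scalings of the arrays (median centring, quantile normalization and cyclic loess). For Adamdec1 the log2 ratio was 0.63, for Dtx1 0.68, for the probe sets of Adgre4 0.48 and 0.60, for Itgam 0.51 and for Itgax 0.18. Both Klf4 probe sets were lower in MARCO-/-, at -0.52 and -0.56. Of all probe sets, 95% lay between -0.60 and 0.53 here, so Esam, Dtx1, Adamdec1 and 1 probe set of Adgre4 lay above that range and none lay below it. The range of the probe sets with a highest log2 value of at least 8 was -0.48 to 0.71. Within it lay Dtx1 and Adamdec1, while both Klf4 probe sets lay below it. Dtx1, Adamdec1 and the dimmer Klf4 probe set reached that brightness only in the genotype where they were higher. Their place in this range is therefore not independent of the filter.

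Between genotypes with LPS, the brighter probe set of Adgre4 alone was at least 2-fold apart, 2.89-fold higher in MARCO-/- DC. Here 1.86% of the whole array passed 2-fold upwards in MARCO-/- and 0.99% downwards. The other probe set of Adgre4 was 1.73-fold higher. The WT value of 2.74 is under the median of all intensities, and against that median the log2 ratio was 0.70, under 2-fold. Esam was 1.38-fold higher and Itgax 1.27-fold higher, while Adamdec1 and Dtx1 had log2 ratios of -0.21 and -0.11. The probe sets of Klf4 differed in sign, at 0.21 and -0.28.

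**Figure D3:**
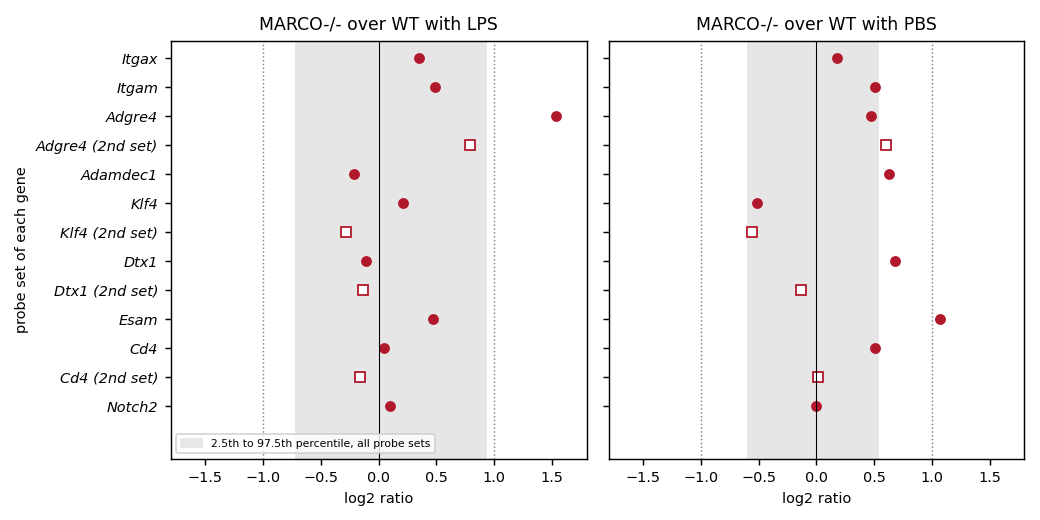
log2 ratio of MARCO-/- over WT with LPS (left) and with PBS (right) for the 13 probe sets. Filled circles are the brightest probe set of a gene, open squares its other probe set, dotted lines mark 2-fold and the grey band holds the central 95% of the ratios of all probe sets. Esam passes 2-fold with PBS, at 1.07, and Adgre4 with LPS, at 1.53 in 1 of its probe sets.

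Markers of other cells moved beside these genes, and their part in the results was not tested. Of 15 macrophage markers, 2 were at least 2-fold higher and none lower in MARCO-/- with PBS (C1qb and C1qc, with a list median of 0.46). Among genes by their brightest probe set 0.76% were higher and 0.287% lower in that comparison. The summed intensity of the list was 864 in MARCO-/- and 567 in WT with LPS, and 3854 and 2540.5 with PBS. Spic gave the largest part of the LPS sums, with 434 and 247, and had 234 and 189 with PBS. With LPS 11 of the 15 were at least 2-fold lower than with PBS in MARCO-/- and 13 in WT. Adgre1, which encodes F4/80 and belongs to this list as well as to the family of Adgre4, had 72.2 and 35.6 in MARCO-/- and WT with LPS, and 298 and 182 with PBS. Of the same list, 4 were at least 2-fold higher and 4 lower in MARCO-/- with LPS, where 2.09% of all genes were higher and 1.31% lower. The higher ones were Adgre1, Slc40a1, Hmox1 and Timd4, and the lower ones C1qa, C1qb, C1qc and Mrc1. C1qb and C1qc, higher in MARCO-/- with PBS, were thus 3.19-fold and 3.07-fold lower with LPS.

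Beside Esam, 1 of 15 endothelial markers was at least 2-fold higher in MARCO-/- with PBS and none was lower, with a list median of 0.25. This was Cldn5 of tight junctions, with 17.7 in MARCO-/- and 6.91 in WT. Plvap, a protein of fenestrated endothelium, had 29.5 and 14.8, and its values with LPS were 7.23 and 23.8. The markers Cdh5 (5.86 and 3.30), Tie1 (2.55 and 2.62) and Tek (2.83 and 2.67) lay near or under the background with PBS. Of markers above it, Pecam1 (28.7 and 33.4) and Vwf (16.8 and 23.0) were lower in MARCO-/- with PBS. Kdr (23.1 and 19.5) was higher, and these 3 missed 2-fold. The sum of the list was 3275 and 3276 in MARCO-/- and WT with LPS, and 3938 and 4395 with PBS, most of which came from the Ramp2 probe set. The median log2 ratio of LPS over PBS of this list was -0.52 in MARCO-/- and 0.51 in WT, the same signs as for Esam. In MARCO-/- 4 markers were at least 2-fold lower and none higher, and in WT 2 were lower and 2 higher. The MARCO-/- median was the ratio of Sox18, with 2.62 with LPS and 3.77 with PBS, both under the median of all intensities. The WT median was that of Kdr, which was also higher with LPS in MARCO-/-, at 0.75. Between genotypes with LPS, Plvap, Egfl7 and Mmrn2 were at least 2-fold lower in MARCO-/-.

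B cells also express Dtx1. The 11 measured B cell markers summed to 2223 and 2649 in MARCO-/- and WT with LPS and to 2140.4 and 2593 with PBS. These sums came mostly from Ms4a1, Cd79b, Cd22 and Cd1d1. With LPS 2 of the 11 were at least 2-fold lower in each genotype and none was higher. They were Cr2 and Cd22 in MARCO-/-, and Cr2 and Fcer2a in WT. With PBS, Fcer2a was 3.17-fold lower in MARCO-/- than in WT. Beside Cd4, the 10 measured T cell markers summed to 270.3 and 285 with LPS and to 423 and 422 with PBS. The largest part of the PBS sums was Cd2, with 151 and 158, and 46.8 and 66.1 with LPS. With LPS 2 of the 10 were at least 2-fold lower in MARCO-/-, and 4 were lower and 1 higher in WT. The higher one was Thy1, with 19.1 in MARCO-/- and 54.7 in WT with LPS. Monocyte and neutrophil markers, relevant for Itgam, summed to 409.8 and 331 with LPS and to 2097 and 2248 with PBS. Most of the PBS sums came from Nr4a1, with 1485 and 1555. Most of the LPS sums came from Ly6c1, with 307 and 210, which had 179 and 211 with PBS. Of the 10 measured, 6 were at least 2-fold lower with LPS in each genotype. Of the 10 NK cell markers, whose cells also carry CD11b and CD11c, 8 were at least 2-fold lower with LPS in each genotype. Klrk1 passed in WT alone and Prf1 in MARCO-/- alone, while Gzmb was 2.03-fold higher with LPS in WT. Between genotypes with PBS, Ncr1 and Cd160 were at least 2-fold higher in MARCO-/-, and Gzma and Gzmb lower. With LPS, Ncr1 and Klrk1 were higher in MARCO-/-, and Gzma and Gzmb again lower.

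Among the other genes of conventional DC 2, 10 of 19 were at least 2-fold lower with LPS in MARCO-/- and 11 in WT, and 1 and none were higher. By brightest probe set, 5.98% of 17097 genes were lower and 6.32% higher with LPS in MARCO-/-, and 8.31% lower and 6.2% higher in WT. Cd209a, a lectin of the DC-SIGN family, was 31.9-fold lower in MARCO-/- and 28.7-fold lower in WT. Cd300a, an inhibitory receptor, was 10.7-fold and 17.4-fold lower. Clec4a2, a lectin of the same family as Clec4a4, was 12.6-fold and 8.17-fold lower in its brightest probe set, and 1 of its other probe sets missed 2-fold. The list medians were -1.18 in MARCO-/- and -2.41 in WT. Cd209e had 2.34 and 2.51 in MARCO-/- and WT with LPS, and 2.91 and 60.4 with PBS, so that its ratio of LPS over PBS passed 2-fold in WT alone. Between genotypes, Cd209d, Cd209e and Mgl2 were at least 2-fold lower in MARCO-/- with PBS, and Sirpa was at least 2-fold higher with LPS. Relb, a factor of the NF-κB family that ESAM-bearing DC require, went the other way and was 2.71-fold higher in MARCO-/- and 1.81-fold higher in WT. It also belongs to the list of DC maturation genes described below. Irf4, Ccr6 and Cd24a were higher with LPS in both genotypes as well, but missed 2-fold.

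Of 13 genes of conventional DC 1, 7 were at least 2-fold lower with LPS in MARCO-/- and 9 in WT, with medians of -1.82 and -1.93, and Ly75, which encodes the uptake receptor DEC-205, was higher in both. Xcr1, the chemokine receptor that defines type 1, had 3.84 and 4.14 in MARCO-/- and WT with LPS, under the median of all intensities, and 219 and 309 with PBS. Against that median it was 44.9-fold lower in MARCO-/- and 63.4-fold lower in WT. Genes of both types thus included members with low ratios, and the difference between the lists was not tested. Of 8 genes of plasmacytoid DC, 2 were lower and 1 was higher in each genotype. Of 19 genes of DC maturation, 15 in MARCO-/- and 13 in WT were at least 2-fold higher with LPS and none was lower. Il6 was 66.6-fold and 50.8-fold higher, and Cd200 13.5-fold and 9.34-fold higher.

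**Figure D4:**
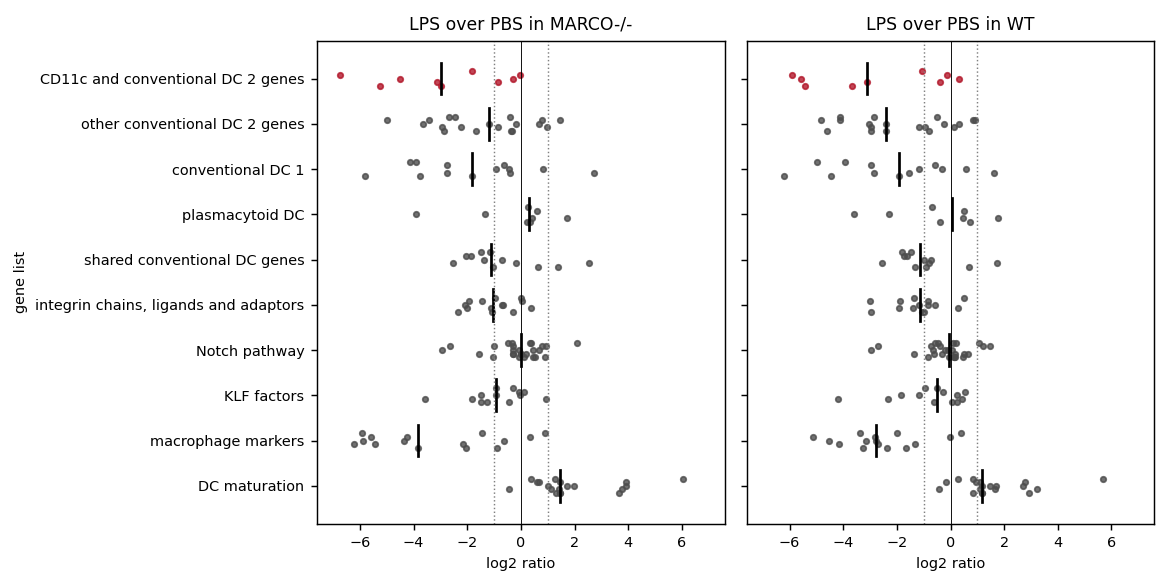
log2 ratio of LPS over PBS in MARCO-/- (left) and in WT (right) by gene list. A point is a gene, shown by the brightest of its probe sets and spread vertically for legibility, black bars are list medians and dotted lines mark 2-fold. The median of the genes described is -2.97 in MARCO-/- and -3.11 in WT, that of the Notch pathway -0.01 and -0.04, and that of DC maturation 1.44 and 1.17.

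Of 27 measured genes of the Notch pathway other than Notch2 and Dtx1, 5 were at least 2-fold lower and 1 higher with LPS in MARCO-/-, and 3 lower and 3 higher in WT. The medians were -0.01 and -0.04. Hes1, a target gene of Notch that encodes a transcriptional repressor, had 6.14 and 6.65 in MARCO-/- and WT with LPS, and 38.5 and 43.4 with PBS. Notch4, a receptor, was lower in 1 of its 3 probe sets, with 3.47 and 3.32 with LPS, under the median of all intensities, and 26.8 and 25.7 with PBS. Against that median it was 5.51-fold lower in MARCO-/- and 5.28-fold lower in WT. Itch, a ubiquitin ligase, was 2.94-fold and 2.56-fold lower in 1 of 3. Dll4, a ligand, had 19.4 and 7.02 with LPS and 4.61 and 3.37 with PBS. It was the only gene of the list past 2-fold between genotypes with LPS, 2.77-fold higher in MARCO-/- in 1 of its 2 probe sets. Rbpj, the DNA-binding factor of the pathway, had 96.8 and 104 with LPS and 97.2 and 93.0 with PBS.

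Of 14 genes in a list of integrin chains, ligands and adaptors, 7 were at least 2-fold lower with LPS in MARCO-/- and 8 in WT, and none was higher. The medians were -1.03 and -1.12. The list holds Itgae, Itgb7, Itgb1 and Itga4, chains of integrins other than β2, of which Itgae and Itgb7 were among the lower genes in both genotypes. Fyb, an adaptor of integrin activation, was 3.78-fold lower in MARCO-/- and 8.01-fold lower in WT. Itgb2 was 5.12-fold and 7.75-fold lower. Icam1, a ligand of β2 integrins, had 386 and 274 with LPS and 294 and 229 with PBS. Of the 13 measured KLF factors other than Klf4, 5 were at least 2-fold lower in MARCO-/- and 4 in WT. Klf2 was 11.8-fold and 18.2-fold lower, and Klf10 3.57-fold and 5.08-fold. Adgre1 and Adgre5, the receptors measured from the family of Adgre4, were 4.12-fold and 9.73-fold lower in MARCO-/- and 5.12-fold and 13.3-fold lower in WT.

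For the 4 genes whose highest log2 value was at least 8, the 3 genes of most similar pattern were sought among 1591 others of that brightness. Likeness was the root mean square difference of log2 values over the 4 arrays, after centring each gene on its mean, and is a description over 4 values. Nearest to Itgax was Alox5ap, which encodes the activating protein of 5-lipoxygenase (0.23), before the nuclear receptor gene Nr4a1 (0.28) and Ccnd1, which encodes cyclin D1 (0.28). Alox5ap had 29.8 and 18.7 in MARCO-/- and WT with LPS, and 1182 and 1255 with PBS. Nearest to Klf4 were Marchf1, a ubiquitin ligase of MHC class II (0.16), the stress factor gene Atf3 (0.19) and Dusp6, a phosphatase of ERK kinases (0.23). Nearest to Dtx1 were Ccrl2, a receptor that binds chemerin (0.08), Tns3, which encodes tensin 3 (0.10), and Pip4k2a, a lipid kinase (0.13). Nearest to Adamdec1 were Ifitm6 (0.37), Xcr1 (0.43) and Fosb, a factor of the AP-1 family (0.49). The LPS values of Adamdec1 and of these 3 genes lay at or under the background, which limits what this likeness can show.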

How the data were processed

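RNA of splenic DC was hybridized by the authors to Affymetrix mouse arrays, 1 array for each of the 4 groups. The deposited intensity values had been background-corrected, normalized and summarized per probe set by the authors with RMAexpress, and are on a linear scale. The methods name 3 pools per genotype, but the sources used here do not say which pool was hybridized. RMA pulls low values towards a floor, which limits folds against dim values. Log2 was taken with no offset, and 104 Affymetrix controls were left out.

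Symbols came from the platform annotation, in which 28898 of 45037 probe sets carry exactly 1. A gene was represented by its probe set of highest mean log2 value. The 4 comparisons were MARCO-/- over WT with LPS and with PBS, and LPS over PBS in MARCO-/- and in WT. A probe set was called at 2-fold, with no test. All genes chosen and lists were fixed with earlier results of these data known, and named list genes were those of the largest ratios, with some added after their values were seen. There were 11 other settings, of which the floor at the median of all intensities was added after seeing the data. The arithmetic of the 2-fold calls was checked on simulated ratios, which says nothing of the spread between samples. A planned comparison of proteins was not run. Calculations used Python 3.11.15, numpy 2.4.6, pandas 2.3.3, matplotlib 3.10.9, R 4.3.3 and limma 3.58.1. The number of arrays, 1 per group, limits the precision.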

Additional observations from a re-analysis of the deposited data

Results flagged for a closer look

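For 4 genes the ratio ran in opposite directions in the groups compared. With 1 array per group none of these differences was tested, and opposite signs of any size are listed. The log2 ratio of LPS over PBS in Esam was negative in MARCO-/- and positive in WT, with a difference, MARCO-/- minus WT, of -0.60. The endothelial markers had medians of the same signs, -0.52 in MARCO-/- and 0.51 in WT, and their part in the difference was not tested. The MARCO-/- median was the ratio of Sox18, whose MARCO-/- values lay under the median of all intensities. The WT median was that of Kdr, which was higher with LPS in both genotypes. The log2 ratio of MARCO-/- over WT changed its sign between LPS and PBS for Dtx1, with a difference, LPS minus PBS, of -0.79. It did so for Adamdec1, with a difference of -0.84, although both Adamdec1 values with LPS lay under the median of all intensities. For Klf4 the difference was 0.72, but the other Klf4 probe set was lower in MARCO-/- in both conditions and had 0.28.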

How the results depend on the processing

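No paired analysis was possible because each group has 1 array. Counts and ratios that moved by less than 1.5 times were taken as unchanged. Of 40 counts of probe sets past 2-fold under other settings, 31 were unchanged. For MARCO-/- over WT with PBS, where 1 probe set passed, there were 4 at a threshold of 1.5-fold, 0 at 3-fold and 0 among probe sets with a highest log2 value of at least 8. For MARCO-/- over WT with LPS, where 1 passed, there were 2 at 1.5-fold, 0 at 3-fold, 0 among the bright probe sets and 0 with values raised to the median of all intensities. For LPS over PBS, where 8 of 13 passed in each genotype, 5 passed in each among the 5 bright probe sets, since fewer were counted. All 5 were that bright only with PBS. Of 200 ratios and differences of ratios of single genes, 195 were unchanged, 5 moved and none that passed 2-fold changed its sign. Those that moved were the ratio of Dtx1 in MARCO-/- (-0.92 as the mean of its probe sets) and 4 values of Adgre4: MARCO-/- over WT with LPS at 0.70, LPS over PBS in WT at -4.73, and the difference between genotypes at 0.23, all with the floor, and LPS over PBS in WT at -4.87 as the mean of its probe sets. Intensities near 4.87 limit what can be said of Notch2, of Cd4 and of Itgam and Adamdec1 with LPS.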

Other observations

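Among the genes shared by conventional DC, Kit, a growth factor receptor, had 312 in MARCO-/- and 99.97 in WT with LPS, and 201 and 189 with PBS. It was the only one of the 12 measured past 2-fold between genotypes with LPS, and none was with PBS. Csf2rb, the common chain of the GM-CSF receptor, had 1678 and 941 with LPS, and 292 and 280 with PBS. Ciita, the master regulator of MHC class II, had 58.1 and 63.8 with LPS, and 334 and 375 with PBS.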
